A study of Mus musculus with 15 samples.

Results

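Kruppel-like factors are transcription factors whose zinc fingers bind GC-rich and CACCC sequences in promoters. Expression of 9 of their genes (Klf2, Klf4, Klf5, Klf6, Klf7, Klf9, Klf10, Klf12 and Klf13) was followed across the postnatal maturation of cortical fast-spiking interneurons. Every probe set annotated to 1 of these symbols alone was taken, which gave 31 probe sets of the 34945 with a single gene on the array, and 9 of the 18193 genes those probe sets cover. Klf4, Klf5, Klf6 and Klf7 fell between postnatal day (P) 7 and P40, the leading probe set of Klf9 (its brightest on average) stayed between 13.62 and 14.66 on the log2 scale on all arrays while a dimmer one rose, and the leading probe sets of Klf12 and Klf13 passed no test.

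RNA was hybridized to Affymetrix whole-genome mouse arrays, with 1 array per animal and 3 G42 mice at each of 5 ages: P7, P10, P15, P25 and P40, the oldest group reaching P45. In G42 mice, GFP is driven by Gad1 regulatory sequence and marks parvalbumin-class cells, and all 5 groups carried this transgene; no other allele or treatment is named for them. Slices were digested with protease, and 23 to 85 fluorescent neurons per animal were picked by hand from the somatosensory cortex (S1). The sources used here do not name the strain or sex. Values are log2 signal intensities, and 5 was taken as the limit between signal and background.

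In the nervous system the family divides by its effect on neurite growth. Klf6 and Klf7 are known to promote axon growth, and Klf4 and Klf9 are known to restrain it. Klf9 is a target of thyroid hormone and glucocorticoid receptors, Klf10 is induced by TGF-beta, and Klf2, Klf4, Klf6 and Klf10 are among the genes that respond early to growth factors or stress. Klf5 drives proliferation in epithelia, Klf2 maintains quiescence in endothelium and T cells, Klf12 is a repressor, and Klf13 represses or activates depending on the promoter.

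Gad1, the GABA-synthesizing enzyme, read 13.88 ± 0.46 (SD, n = 3) at P7 and 14.98 ± 0.14 at P40. Its promoter drives the GFP used to pick the cells, so high Gad1 is no test of the parvalbumin class. Pvalb, the calcium-binding protein that names the class, was under the limit on all 3 P7 arrays (3.62 ± 0.72) and reached 14.28 ± 0.20 at P40. Slc17a7 of excitatory neurons, Cldn5 of endothelium, Cx3cr1 of microglia and Mog of oligodendrocytes did not exceed 2.62, 2.51, 4.92 and 4.05 on any array, while Aqp4 of astrocytes reached 5.72 on a P10 array and 6.14 on a P25 array. Other markers on these lists were over the limit: only 6 of 13 excitatory and 9 of 13 oligodendrocyte-lineage markers were at or under 5 on all 15 arrays, with single markers up to 11.36 and 11.58. Their summed levels (log2 of the sum of linear signals) ran from 10.65 to 11.54 at P7 and 10.95 to 11.46 at P40 for the excitatory list, and from 10.81 to 11.13 at P7, 11.07 to 12.22 at P25 and 9.23 to 10.02 at P40 for the oligodendrocyte list. Astrocyte markers were at or under 5 on all 15 arrays for only 3 of 12 genes, with single markers up to 10.63. For markers of other interneuron classes it was 4 of 12, with single markers up to 14.32. The summed level of the astrocyte list ran from 8.65 to 10.85 at P7 and 9.07 to 10.54 at P40. That of the other interneuron list ran from 13.18 to 14.38 at P7, 13.99 to 15.72 at P15 and 13.45 to 14.62 at P40. The part of all these cells in the Klf values was not tested. Array medians ran from 3.21 to 3.46, and no 2 arrays held identical values. In P15 replicates 2 and 3 the hybridization controls read 2.51 and 2.47, against 9.88 or more elsewhere, and the P15 steps that were called are also given without them. The 3′ minus 5′ difference of the beta-actin control, a measure of RNA integrity and amplification, averaged 5.77 ± 0.98 at P7 and 3.93 ± 0.55 at P40, and the difference entered a further fit as a covariate. In pooled cells of this kind, fewer expressing cells and less RNA per cell cannot be told apart.

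RefSeq promoter sequence (GRCm38.p6) was held for 7 of the 9 genes; Klf5 and Klf10 had no entry in the table used. The 250 bases before the start of 4 genes are shown because these genes carry the main contrast of the data, the fall of Klf4, Klf6 and Klf7 beside Klf9, whose leading probe set was not called between P7 and P40. Capitals mark the GC box GGGCGG, the CACCC element and the core TGACG of the cyclic AMP response element, on either strand. A pair of GC boxes in Klf4 overlaps by 1 base.
Klf4, chr4:55532476-55532725, minus strand: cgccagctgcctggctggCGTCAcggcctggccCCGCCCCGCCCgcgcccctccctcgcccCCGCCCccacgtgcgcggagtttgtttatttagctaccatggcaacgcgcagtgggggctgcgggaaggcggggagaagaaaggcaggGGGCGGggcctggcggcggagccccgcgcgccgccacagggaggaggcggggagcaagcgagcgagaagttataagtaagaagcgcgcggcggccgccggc
Klf6, chr13:5861239-5861488, plus strand: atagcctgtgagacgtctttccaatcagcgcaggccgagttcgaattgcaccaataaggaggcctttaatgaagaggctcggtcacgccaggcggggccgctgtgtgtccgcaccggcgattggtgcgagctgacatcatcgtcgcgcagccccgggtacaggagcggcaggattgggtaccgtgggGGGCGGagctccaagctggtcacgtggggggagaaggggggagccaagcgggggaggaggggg
Klf7, chr1:64121390-64121639, minus strand: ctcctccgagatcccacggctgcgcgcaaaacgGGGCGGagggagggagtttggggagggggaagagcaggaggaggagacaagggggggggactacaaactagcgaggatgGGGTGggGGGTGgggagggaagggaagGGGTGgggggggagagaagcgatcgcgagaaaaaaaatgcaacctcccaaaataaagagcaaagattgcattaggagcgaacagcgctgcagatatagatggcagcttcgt
Klf9, chr19:23140976-23141225, plus strand: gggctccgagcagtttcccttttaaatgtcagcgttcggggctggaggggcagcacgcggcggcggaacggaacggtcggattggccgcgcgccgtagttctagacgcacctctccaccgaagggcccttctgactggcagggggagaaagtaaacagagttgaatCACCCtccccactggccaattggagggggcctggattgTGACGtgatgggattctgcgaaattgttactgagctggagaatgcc

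The Klf4 window held 4 GC boxes and 1 TGACG core at 74% GC. The Klf6 window held 1 GC box at 64.8% GC, and the Klf7 window held 1 GC box and 3 CACCC elements at 59.2% GC. The Klf9 window held no GC box, 1 CACCC element and 1 TGACG core at 59.6% GC. Of the windows not printed, that of Klf13, which passed no test, held 3 GC boxes. That of Klf2 held 2 and that of Klf12 held none. Among windows of the same length before 32851 gene starts, 32.7% held a GC box, 52% a CACCC element and 17.8% a TGACG core, and the median GC content was 52.4%. All 7 Klf windows except that of Klf12 (48%) were above this median. The full cyclic AMP response element TGACGTCA (1.55% of all windows; it contains the TGACG core) and the CArG box bound by serum response factor (1.47%) occurred in none of the 7, and the TATA box TATAAA (12.4%) occurred in Klf12 alone. A match of letters in a window is a description of the sequence and not a binding site.

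Of the 31 Klf probe sets, 21 exceeded 5 on at least 3 of the 15 arrays and were tested. Between P7 and P40, 10 of the 21 were lower, 2 were higher and 9 did not pass the test (limma, adjusted p under 0.05 over all 15381 probe sets tested). Over all probe sets tested, 41.9% were called, 15.9% lower and 26% higher. The median difference, P40 minus P7, was -1.23 over the tested Klf probe sets and 0.18 over all. All 10 lower calls lay among the 12 tested probe sets of Klf4, Klf5, Klf6 and Klf7, and both higher calls among the 9 of Klf9, Klf12 and Klf13. With the arrays set to equal medians, the median over all probe sets moved to -0.03 and the share of higher calls from 62% to 50.5%, while the Klf counts stayed at 10 lower and 2 higher; quantile normalization gave 0 and 52%, again with 10 and 2. The P7 and P40 arrays did not overlap for 16 of the 21, and 11 of those were lower at P40, beside 53.1% without overlap and 21.2% lower without overlap among all probe sets. By gene, 4 of the 7 with a tested leading probe set were called, all lower, beside 44.3% of all genes read this way. Any difference among the 5 ages was called by the F test for 16 of the 21, beside 44.6% of all probe sets. A probe set that passed only through an age where it was high had to differ, so these counts describe the tested probe sets and not the family.

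**Figure D1:**
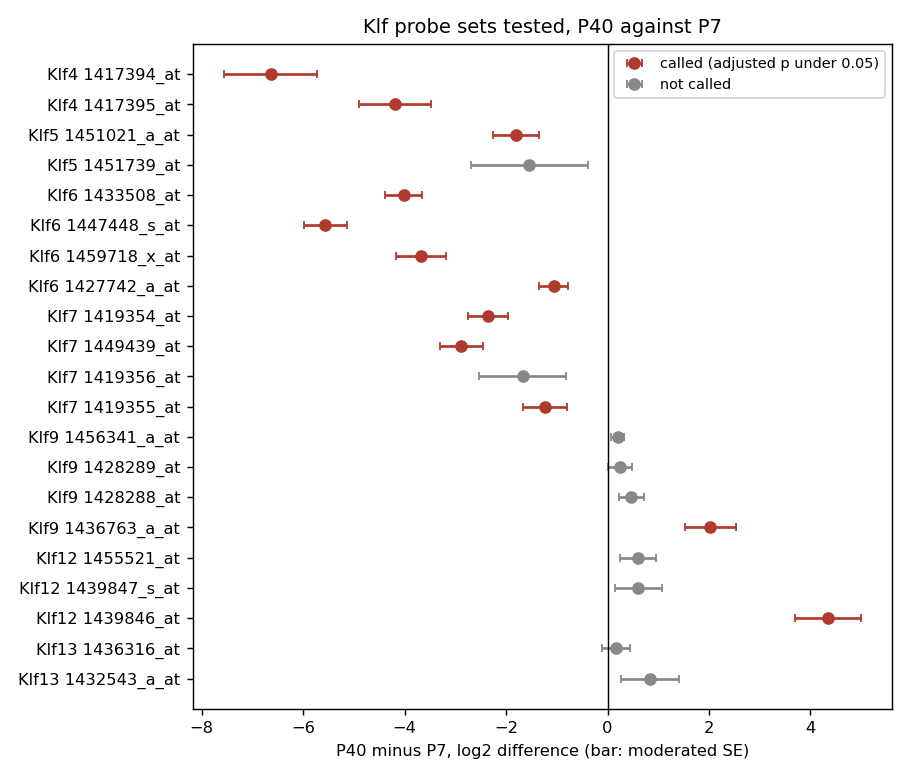
Difference P40 minus P7 on the log2 scale (x axis) for each of the 21 tested Klf probe sets (y axis), with the moderated standard error as the bar. Red points passed the test and grey points did not; the 10 red points left of 0 belong to Klf4, Klf5, Klf6 and Klf7, and the 2 right of 0 to Klf9 and Klf12.

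Klf6, a promoter of axon growth, fell between P7 and P40, in its leading probe set by P10 and again by P15. Its leading probe set (1433508_at, the brightest of its 5 on average) read 11.70, 11.50 and 11.45 at P7, 10.45, 10.28 and 9.38 at P10, 8.46, 8.34 and 8.95 at P15, 9.04, 8.28 and 7.74 at P25, and 6.99, 7.58 and 8.03 at P40. Every P7 array was above every P10 array, every P10 array above every P15 array, and P15 overlapped P25. Klf6 was 16.2-fold lower at P40 than at P7 (log2 difference -4.02, SE 0.37, adjusted p = 2.4e-06), and 73.9% of that difference was reached by P15 (77.1% without P15 replicates 2 and 3). The steps P10 minus P7 (-1.52, adjusted p = 0.044) and P15 minus P10 (-1.45, adjusted p = 0.029) were called and the later steps were not (P25 minus P15, -0.23; P40 minus P25, -0.81). Left out singly, 11 of the 15 arrays ended the call of the P10 step (-1.72 to -1.19) and 4 that of the P15 step (-1.78 to -1.24). The P15 step was not called without P15 replicates 2 and 3 together (-1.58), nor with actin (-1.53) or the number of cells (-0.99) as a covariate.

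The other Klf6 probe sets gave the same direction between P7 and P40, but none of those tested was called in P10 minus P7. That step was -1.68 (adjusted p = 0.053) for 1447448_s_at, -0.17 (adjusted p = 0.92) for 1459718_x_at and -0.48 (adjusted p = 0.47) for 1427742_a_at. Probe sets 1447448_s_at and 1459718_x_at, made from a shared submitted sequence and so not independent, went from 10.49 ± 0.26 to 4.93 ± 0.70 and from 8.58 ± 0.14 to 4.90 ± 0.73, differences of -5.56 (SE 0.43, adjusted p = 4.6e-07) and -3.68 (SE 0.49, adjusted p = 4.9e-05). Both were still over 5 on 2 of the 3 P40 arrays. The dim 1427742_a_at went from 6.32 ± 0.37 to 5.26 ± 0.01, a 2.09-fold fall (adjusted p = 0.01) that was not called with the actin covariate (-1.13). The fifth, 1418280_at, exceeded the limit only on P7 replicate 3 (5.57) and was not tested. Read from the mean of its 5 probe sets, Klf6 fell by 3.22 on the log2 scale. The P7 to P40 call of the leading probe set held under all 28 alternatives.

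Klf7, the other promoter of axon growth, fell as well, mostly by P15. Its leading probe set (1419354_at) read 10.70, 11.44 and 11.76 at P7, 11.08, 10.80 and 9.43 at P10, 8.95, 9.64 and 9.46 at P15, 8.53, 8.26 and 8.97 at P25, and 9.01, 8.92 and 8.90 at P40. P7 and P10 overlapped, all P7 arrays lay above all arrays from P15 on, and the P40 arrays lay between 8.90 and 9.01. Klf7 was 5.13-fold lower at P40 than at P7 (-2.36, SE 0.39, adjusted p = 3e-04), with 82.6% of the difference reached by P15 (99.5% without P15 replicates 2 and 3). No single step of this probe set was called, with P15 minus P10 at -1.08 (SE 0.39, adjusted p = 0.085).

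All 4 Klf7 probe sets come from the same submitted sequence, yet they differed after P15. Probe set 1449439_at followed the leading probe set, from 10.19 ± 0.20 to 7.32 ± 0.43 (7.34-fold lower, SE 0.42 on the log2 scale, adjusted p = 0.00011). Probe set 1419356_at read 10.02, 9.71 and 7.91 at P10, 5.41, 7.19 and 6.10 at P15, 3.40, 2.04 and 5.72 at P25 and 7.08, 7.32 and 6.33 at P40. It was the only Klf7 probe set to drop under the limit on any array, and all its P40 arrays lay above all its P25 arrays, but neither P40 minus P25 (3.19, SE 0.86, adjusted p = 0.086) nor P40 minus P7 (-1.67, SE 0.86, adjusted p = 0.13) was called. For 1419355_at the P40 call (2.34-fold lower, adjusted p = 0.033) was lost without P7 replicate 3 (-1.01), P40 replicate 2 (-0.95) or P40 replicate 3 (-1.30), with array weights (-1.07) and with the number of cells as a covariate (-1.03). The leading probe set kept its call under all 28 alternatives.

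**Figure D2:**
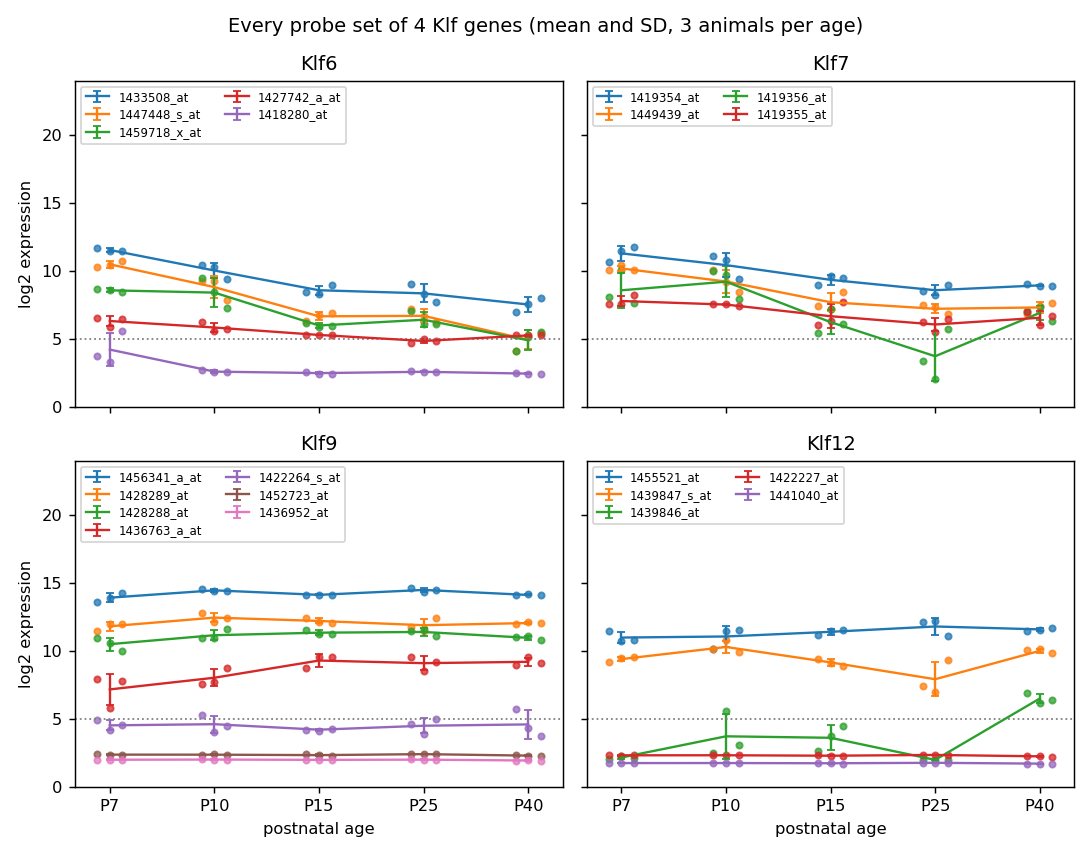
Every probe set of Klf6, Klf7, Klf9 and Klf12: log2 expression (y axis) against postnatal age (x axis), with points for single arrays, lines through the means and bars of 1 SD (3 animals per age); the dotted line is the limit of 5. The probe sets of Klf6 are all lower at P40 than at P7, though not all fall at every step. Probe set 1419356_at of Klf7 dips at P25, the leading probe set of Klf9 stays near one level, and 1439846_at of Klf12 is over 5 on all arrays only at P40.

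Klf4, a restrainer of axon growth and an early-response gene, had the largest fall among the leading Klf probe sets and was under the limit at P40. Probe set 1417394_at read 11.18, 10.94 and 9.16 at P7, 9.35, 8.20 and 9.73 at P10, 5.36, 9.20 and 8.01 at P15, 3.15, 5.26 and 2.77 at P25, and 2.91, 4.69 and 3.75 at P40. P15 was the most scattered age, with replicate 1 near the limit, and all P25 and P40 arrays lay below all earlier arrays. Klf4 was at least 43-fold lower at P40 than at P7, a bound against the limit of 5 (fitted difference -6.64, SE 0.91, adjusted p = 5.8e-05). The share of the fitted difference reached by P15 was 43.7%, and it depended on single arrays: it was 27.5% without P15 replicate 1 and 76.3% without replicates 2 and 3. P25 minus P15 was its only called step (-3.79, SE 0.91, adjusted p = 0.031). That step was not called without P15 replicate 2 (-2.96), P15 replicate 3 (-3.55), P25 replicate 1 (-3.51) or P25 replicate 3 (-3.32), and stood at -1.63 without P15 replicates 2 and 3 together. It was not called either with the number of cells (-3.26) or actin (-3.21) as a covariate or with values under 5 set to 5 (-2.43), and was -4.88 without P15 replicate 1 and -4.56 without P25 replicate 2.

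The second Klf4 probe set, 1417395_at, from the same submitted sequence, read 6.54, 8.07 and 6.18 at P7 and 2.46, 2.80 and 2.98 at P40. It was at least 3.81-fold lower (fitted difference -4.18, SE 0.71, adjusted p = 0.00036) and was over the limit on all P7 and P10 arrays, on 1 P15 array (replicate 2, 5.49) and on none later. Both Klf4 probe sets thus passed the filter only through ages before P40 and had to be lower there. The call of 1417395_at is therefore no separate support. Klf4 was called lower under all 28 alternatives. The size of its fitted difference depended in part on values under the limit, and was -5.43 with values under 5 set to 5. It also moved with other settings, to -5.41 from the mean of both probe sets, -7.97 with the actin covariate and -7.28 without P7 replicate 3. For 1417395_at it was -1.93 with values under 5 set to 5.

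Klf9, the hormone-responsive restrainer of axon growth, was far above the limit throughout. Its leading probe set (1456341_a_at) read 13.62, 13.93 and 14.26 at P7, 14.58, 14.42 and 14.43 at P10, 14.11, 14.16 and 14.16 at P15, 14.66, 14.35 and 14.51 at P25, and 14.11, 14.18 and 14.12 at P40. The 15 arrays spanned 13.62 to 14.66 and P7 overlapped P40. The P40 minus P7 difference was 0.20 (SE 0.13, adjusted p = 0.24), which turned to -0.01 with equal array medians, and the call appeared without P7 replicate 3 (0.37). The F test was called (adjusted p = 0.01), with P10 minus P7 at 0.55 (adjusted p = 0.043), a step call that 13 of the 15 arrays ended when left out singly (0.39 to 0.71).

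Among the dimmer Klf9 probe sets, 1436763_a_at rose. It read 7.92, 5.84 and 7.77 at P7, 7.60, 7.75 and 8.76 at P10, 8.74, 9.60 and 9.57 at P15, 9.55, 8.56 and 9.22 at P25, and 9.01, 9.53 and 9.09 at P40, with every P40 array above every P7 array. The rise was 4.09-fold (2.03 on the log2 scale, SE 0.50, adjusted p = 0.0052). It was 1.36 without P7 replicate 2, the lowest array, and was not called with the actin covariate (1.00). Probe sets 1428289_at (11.82 ± 0.31 to 12.06 ± 0.06) and 1428288_at (10.51 ± 0.47 to 10.98 ± 0.13) were not called, although 1428288_at passed without P7 replicate 1 (0.68). The remaining 3 of the 7 Klf9 probe sets were not tested. Of these, 1422264_s_at exceeded the limit on 2 arrays (P10 replicate 1, 5.30; P40 replicate 1, 5.76) and the others on none.

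**Figure D3:**
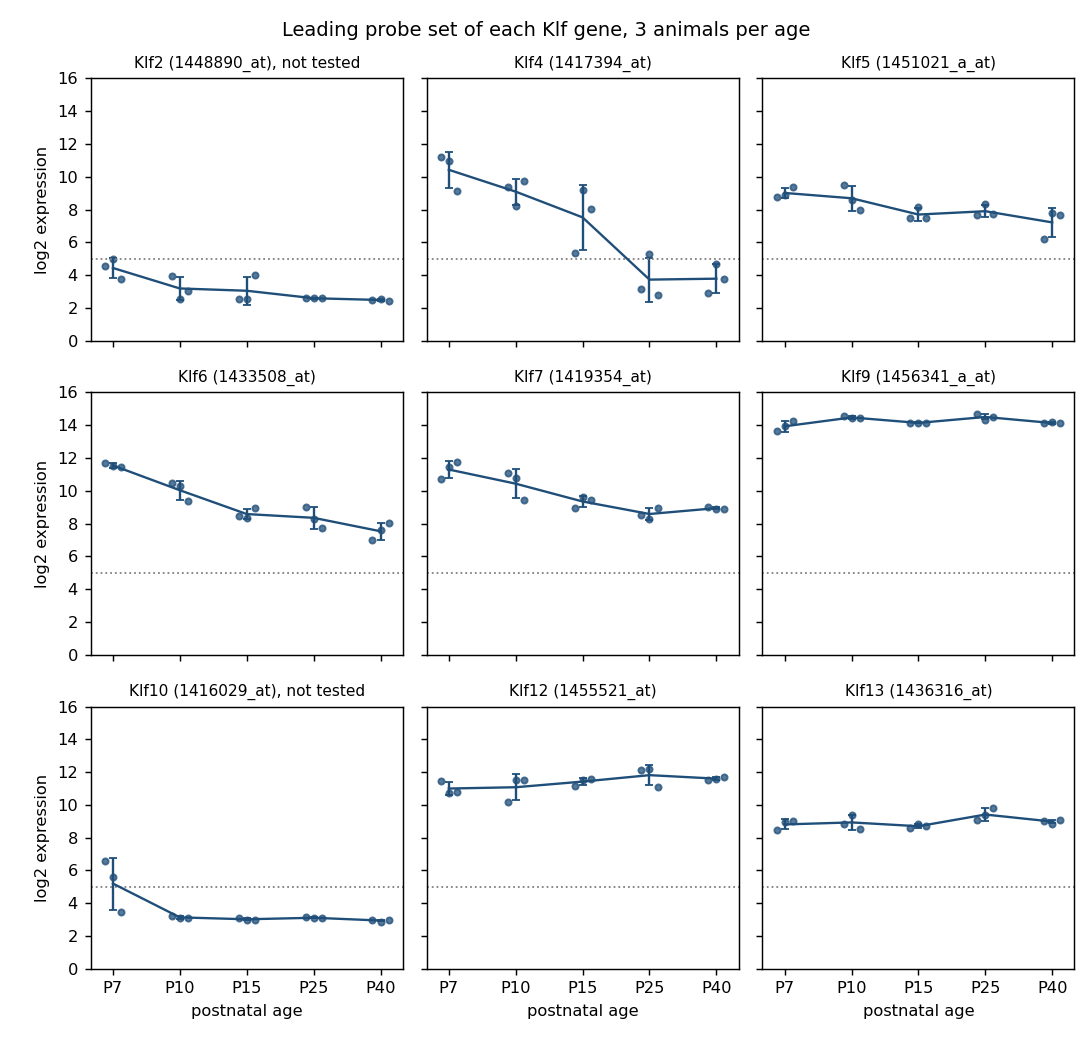
Leading probe set of each of the 9 Klf genes: log2 expression (y axis) against postnatal age (x axis), with points for single arrays, lines through the means and bars of 1 SD (3 animals per age); the dotted line is the limit of 5. Klf4, Klf6 and Klf7 run downward from 10.43, 11.55 and 11.30 at P7 to 3.78, 7.54 and 8.94 at P40. Klf9 stays between 13.62 and 14.66, Klf2 is under the limit at every age, and Klf10 is under it after P7.

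Klf5, a proliferation factor of epithelia, fell modestly. Its leading probe set (1451021_a_at) read 8.78, 8.88 and 9.38 at P7, 9.50, 8.58 and 7.99 at P10, 7.46, 8.14 and 7.49 at P15, 7.66, 8.34 and 7.70 at P25, and 6.19, 7.82 and 7.64 at P40. All P7 arrays lay above all arrays from P15 on, and P10 bridged them. Klf5 was 3.47-fold lower at P40 than at P7 (-1.80, SE 0.45, adjusted p = 0.0058). The call was lost with the actin covariate (-1.61) and when the gene was read from the mean of its 3 probe sets (-1.23). The second probe set, 1451739_at, scattered within every age (4.99 to 9.04 at P7, 4.02 to 6.43 at P40) and was not called (-1.54, SE 1.15, adjusted p = 0.3), and 1430255_at stayed under the limit on all arrays.

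Klf10 and Klf2, both early-response genes with 1 probe set each, were not tested. Klf10 (1416029_at), the TGF-beta-inducible member, read 6.57, 5.57 and 3.46 at P7 and between 2.88 and 3.25 on the 12 later arrays. It was thus over the limit on 2 P7 arrays alone, those of replicates 1 and 2. Klf2 (1448890_at) stayed under the limit on every array, at 4.57, 4.96 and 3.78 at P7 and 2.48, 2.52 and 2.45 at P40. With no filter applied, both were called lower at P40 (Klf10, -2.26, and Klf2, -1.95), in a fit that called 14340 of all 34945 single-gene probe sets. Endothelial and mural markers, listed because endothelium expresses Klf2 and Klf4, were at or under the limit on all 15 arrays for 17 of 20 genes. Single markers reached up to 10.22. Their summed level ran from 8.41 to 9.47 at P7, 8.95 to 9.83 at P10, 9.21 to 10.53 at P15, 8.61 to 9.23 at P25 and 8.17 to 8.56 at P40. For microglia 13 of 15 markers were at or under the limit on all arrays, and for blood 8 of 8. The summed level of the microglia list was 7.36 to 7.99 at P7 and 6.98 to 7.08 at P40. The part of these cells in the Klf values was not tested.

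Klf12, a repressor, was expressed at all ages, and its probe sets disagreed. The leading probe set (1455521_at) read 11.46, 10.72 and 10.81 at P7 and 11.50, 11.58 and 11.72 at P40, a difference of 0.60 (SE 0.36, adjusted p = 0.2). It was called under no alternative read from this probe set. The mean of the gene's 5 probe sets was called (1.09), but it takes in 1439846_at (4.34, described below), beside 1439847_s_at (0.61), 1422227_at (-0.08) and 1441040_at (-0.04). Probe set 1439847_s_at read 9.23, 9.47 and 9.53 at P7, 10.13, 10.82 and 9.96 at P10, 9.44, 9.13 and 8.93 at P15, 7.43, 6.98 and 9.37 at P25, and 10.05, 10.16 and 9.84 at P40. It was lowest in P25 replicates 1 and 2, and its P25 to P40 rise was 4.27-fold (2.09 on the log2 scale, SE 0.46, adjusted p = 0.039).

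Probe set 1439846_at, from the same submitted sequence, was under the limit on all arrays but the 3 of P40 (6.91, 6.21 and 6.39) and P10 replicate 2 (5.59). It therefore passed the filter largely through P40 and had to differ there: it was at least 2.84-fold higher at P40 than at P7 (fitted difference 4.34, SE 0.65, adjusted p = 0.00013) and than at P25 (4.52, SE 0.65, adjusted p = 0.006). With values under 5 set to 5 both differences were 1.50. The call against P25 was lost without P40 replicate 1 (4.32). The call for 1439847_s_at was lost when any of 8 arrays was left out, among them P25 replicates 1 (1.84) and 2 (1.62) and each P40 array (2.02 to 2.18), and it was 2.81 without P25 replicate 3. It was also not called with the actin covariate (2.20), without the variance trend, or under quantile normalization (2.04) or equal array medians (2.03). The last 2 Klf12 probe sets, 1422227_at and 1441040_at, never exceeded 2.37.

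Klf13, which can repress through Sin3, passed no test. Its leading probe set (1436316_at) read 8.46, 8.93 and 9.03 at P7, 8.86, 9.40 and 8.53 at P10, 8.58, 8.82 and 8.69 at P15, 9.05, 9.39 and 9.79 at P25, and 9.01, 8.86 and 9.07 at P40. P7 and P40 overlapped, and the difference of 0.17 (SE 0.28, adjusted p = 0.65) turned to -0.04 under quantile normalization and equal array medians. Probe set 1432543_a_at went from 7.75 ± 0.16 to 8.59 ± 0.32 without overlap, and was not called either (0.84, SE 0.57, adjusted p = 0.25). The third, 1456030_at, stayed under the limit.

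Between neighbouring ages few Klf probe sets passed. In P10 minus P7, 1 was higher and 1 lower, where 2.77% of all probe sets were called, 1.85% higher and 0.917% lower. In P15 minus P10, 5 were called, all lower, where 9.99% of all were called, 2.46% lower and 7.52% higher. These were 3 of Klf6 (1433508_at, 1447448_s_at, 1459718_x_at) and 2 of Klf7 (1449439_at, 1419356_at). Without P15 replicates 2 and 3 together their differences were, in that order, -1.58, -2.48, -2.24, -1.83 and -3.81, resting on 1 P15 array. In P25 minus P15 only 1417394_at of Klf4 was called, as lower, where 4.24% of all were called, 2.3% lower and 1.94% higher. In P40 minus P25 only 2 of Klf12 were called, both higher, where 1.74% of all were called, 1.27% higher and 0.468% lower. Each of these 10 step calls was lost when at least 1 particular array was left out, from 1 of 15 arrays for 1439846_at to 13 of 15 for 1456341_a_at. The number of Klf calls in P15 minus P10 was 0 without P15 replicate 2, 0 without P10 replicate 1, 1 without P10 replicate 2 and 3 without P15 replicate 1 or replicate 3. That step is also the step to the age with the fewest cells (23 to 45 per animal), and the count was 0 with the number of cells as a covariate.

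The genes around these factors were read from lists of known partners, inducers and processes, each gene by its leading probe set. Over all genes tested this way, 17.3% were called lower and 27% higher at P40 than at P7, and the median difference was 0.18. Of 6 tested relatives in the Klf and Sp family, 2 were higher and 1 lower. Klf15, a glucocorticoid-responsive factor, rose 3.39-fold (6.04 ± 0.17 to 7.80 ± 0.26), Klf3, a CtBP-binding repressor, rose 3.68-fold (8.84 ± 0.71 to 10.72 ± 0.20), and Klf16 fell by 1.02 on the log2 scale. The Klf16 call was lost without P7 replicate 1 (-0.92) or P40 replicate 2 (-0.89) and with actin (-0.93) or the number of cells (-0.95) as a covariate, and 2 relatives were lower without P15 replicate 1 or replicate 2, with array weights, with values under 5 set to 5 and under both other scalings.

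Among 18 tested cofactors 6 were lower and 4 higher. The Sin3 scaffold Sin3b fell 5.67-fold (13.25 ± 0.24 to 10.75 ± 0.46) and its partner Sap30 fell 6.26-fold (9.08 ± 0.56 to 6.44 ± 0.22). The corepressor Ctbp2 rose 9.08-fold (5.38 ± 0.87 to 8.56 ± 0.23) and the acetyltransferase Kat2b 2.28-fold. The number of higher cofactors was 1 without P40 replicate 3 and 2 without any of P40 replicates 1 and 2 and P7 replicates 2 and 3. It was 1 with the number of cells as a covariate, and 2 under quantile normalization and with equal array medians. Kat2b was among the calls lost with actin (0.93) or the number of cells (1.12) as a covariate, and without P40 replicate 2 (1.20), P40 replicate 3 (1.09), P7 replicate 2 (1.05) or P7 replicate 3 (1.18).

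Of the 20 tested genes of glucocorticoid and thyroid hormone response, the setting in which Klf9 is best known, 3 were higher and 4 lower, with a median of 0.13. The metallothionein Mt1 rose at least 29.2-fold and the mineralocorticoid receptor Nr3c2 at least 12.3-fold. The cell-cycle inhibitor Cdkn1a fell by 2.87 on the log2 scale and the coactivator Ncoa2 fell 2.12-fold. Of 19 tested genes of TGF-beta and activin signalling, the inducers of Klf10, 8 were lower and 4 higher. The receptor Tgfbr1 fell 19.9-fold and the Smad repressor Skil 3.34-fold, whereas the ligand Tgfb3 and the receptor Tgfbr2 crossed the limit upward, at least 12.9-fold and 17.4-fold.

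Of 30 tested genes of neurite growth and regeneration, the process that Klf4, Klf6, Klf7 and Klf9 are known to regulate, 18 were lower and 5 higher, with a median of -1.15. The microtubule-binding Dcx fell 49-fold (13.43 ± 0.15 to 7.82 ± 0.27) and Dpysl3, a collapsin response mediator, 12.7-fold. The neurotrophin receptor Ntrk3 rose 61-fold and the protease Plat at least 7.88-fold. Of 16 cell cycle genes 3 were lower and 13 were not called; the kinase Cdk6 fell 27.2-fold and the cell-cycle inhibitor Rb1 3.36-fold. With array weights 1 gene of this list was higher, and without the variance trend or with values under 5 set to 5, 2 were. Of 14 clock genes 7 were higher and 2 lower, with the output factors Tef and Dbp 4.33-fold and 6-fold higher, and with Nfil3 at least 5.04-fold and Cry1 1.78-fold lower. With the actin covariate, which left 3665 calls over all probe sets in place of 6439, 2 cofactors were lower and 2 higher, 2 TGF-beta genes and 3 neurite genes were higher, and 1 clock gene was lower; the single lower relative (Klf16) and Cry1 were among the calls lost.

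**Figure D4:**
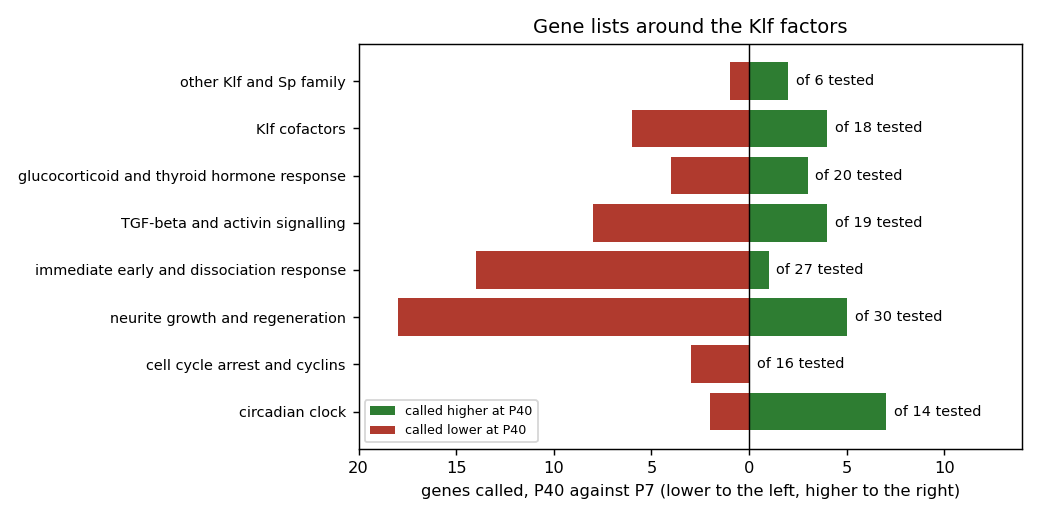
Number of genes called higher (green, right) or lower (red, left) at P40 than at P7 in each of 8 lists, with the number tested beside each bar. Neurite growth and regeneration has 18 lower and 5 higher of 30, and the circadian clock 2 lower and 7 higher of 14.

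Immediate early and dissociation-response genes, which protease digestion and trituration can induce, were read beside the Klf genes. Of 27 tested, 14 were lower, 1 was higher and 12 were not called at P40 against P7, with a median of -0.97. Among all genes read by their leading probe set, 17.3% were lower and 27% higher. The F test over the 5 ages was called for 13 of the 27 genes, each read by its leading probe set. The share over all 15381 probe sets, a different unit, was 44.6%. Myc fell at least 13.5-fold and Egr1 7.49-fold (9.47 ± 0.17 to 6.57 ± 0.52). The single higher gene, the heat-shock protein Hspa1a (2.97-fold, adjusted p = 0.034), was not called without P7 replicate 3 (0.93 on the log2 scale) or without any P40 array (1.47 to 1.74), with actin (1.35) or the number of cells (1.10) as a covariate, under quantile normalization (1.34) or without P15 replicates 2 and 3, and 2 genes were higher without P7 replicate 1. The summed level of the list (log2 of the sum over 39 genes) lay between 14.83 and 15.23 at P7, 14.33 and 14.70 at P10, 14.13 and 14.73 at P15, 13.98 and 14.46 at P25, and 13.79 and 14.10 at P40.

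Within P15, replicate 1 was the lowest array for Klf4 (5.36, against 9.20 and 8.01), for Fos (11.30, against 12.46 and 12.66), for Jun (7.86, against 8.89 and 9.80) and for Egr1 (7.09, against 8.18 and 8.51), genes picked for display after their values were seen. It was not the lowest for Ier2 (6.11, against 7.58 and 5.97) or for Klf6 (8.46, against 8.34 and 8.95). Fos fell 9.58-fold, from 13.32 ± 0.44 at P7 to 10.06 ± 0.40 at P40, where Klf4 was under the limit on all 3 arrays. Of the 27 tested members of the response, 14 were lower at P40, 1 was higher and 12, among them Dusp1, were not called. Dusp1 read 10.31 ± 0.85 at P7 and 10.51 ± 0.05 at P40, and Atf3 was under the limit at both ages (3.60 ± 0.06 and 3.50 ± 0.09). The part of the dissociation response in the levels of Klf4, Klf6 and Klf10 was not tested.

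**Figure D5:**
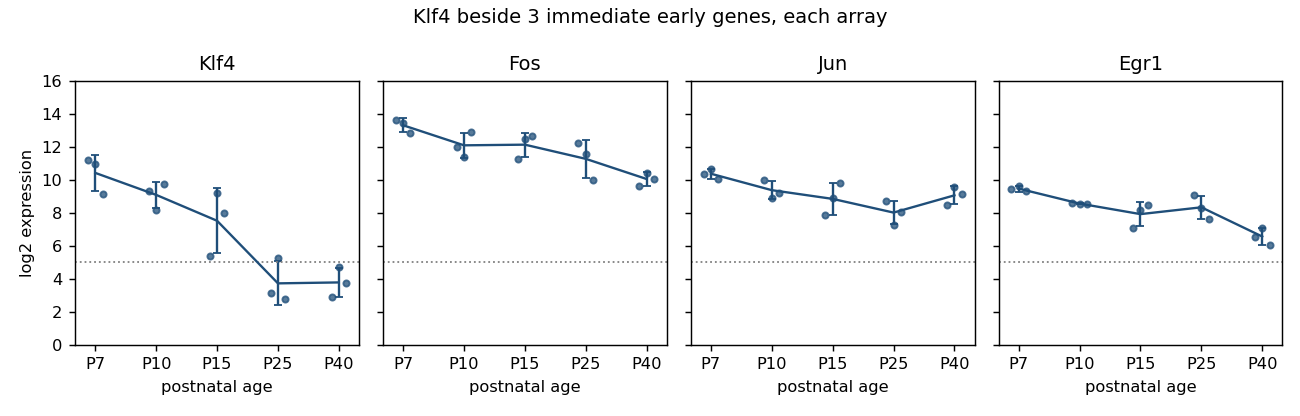
Log2 expression (y axis) against postnatal age (x axis) of Klf4 beside Fos, Jun and Egr1, each from its leading probe set, with points for single arrays, lines through the means and bars of 1 SD (3 animals per age); the dotted line is the limit of 5. At P15 replicate 1 (the left point) is the lowest in all 4 panels. Fos goes from 13.32 ± 0.44 at P7 to 10.06 ± 0.40 at P40, where Klf4 is under the limit.

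Likeness of pattern was measured as Pearson r between leading probe sets over the 15 arrays, which share their ages, among 9662 other genes. Klf4 was most like Fam3c (r = 0.971), Fads1 (0.966) and Farp1 (0.961). Klf6 was most like Sox11 (0.968), Mgat4b (0.968) and Zfp704 (0.965), and Klf7 most like Plxna2 (0.972), Rpl35 (0.958) and Lrp8 (0.955). For Klf5 the nearest were Cnot4 (0.928), Mxd4 (0.918) and Senp3 (0.911), and for Klf9 Nepro (0.866), Zfp937 (0.83) and Dnase2a (0.799). After each age mean was removed, r fell to 0.87 for Klf4 with Fam3c, 0.63 for Klf6 with Sox11 and 0.88 for Klf7 with Plxna2. These values are descriptions, with the largest of 9662 picked for each gene.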

How the data were processed

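The deposited log2 values, 1 per probe set and array, were made by the authors with GCRMA, a method of background correction, normalization and summary, per the submitters' processing notes; its version is not given in the sources used here. RNA had gone through 2 rounds of T7 amplification, per the labels' protocols, which favours 3′ ends. Values were used as deposited, and probe sets were named from the platform annotation, which can be old. Of 45101 probe sets, those with several genes, none or a control sequence were left out.

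Probe sets over 5 in at least 3 of 15 arrays entered limma 3.58.1, run in R 4.3.3 (a means model over 5 ages, empirical Bayes with a variance trend, 10 residual degrees of freedom, two-sided, Benjamini-Hochberg over all 15381 within each contrast). The code was tested on simulated data. ± marks the SD over 3 arrays and SE the moderated standard error. Folds are printed where both means exceed 5, and as a bound against 5 where all 3 arrays of the dimmer age lie at or under 5. The number of arrays limits the precision. Figures used Python 3.11.15, pandas 2.3.3 and matplotlib 3.10.9.

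All 9 members were named, and in each of 8 functional lists up to 2 called genes per direction, taken by smallest adjusted p; 8 marker lists checked the cells. Fos, Jun, Ier2, Dusp1 and Atf3 were added after their values were seen. The share of a difference reached at P15 was recomputed without P15 arrays, an alternative chosen after seeing the data. Members and lists were chosen with earlier results of these data known. Replicate numbers did not pair the animals: deviations from the age means of same-numbered P7 and P40 arrays correlated at -0.04, 0.01 and 0.02.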

Additional observations from a re-analysis of the deposited data

How the results depend on the processing

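Across 28 alternatives the Klf counts for P40 minus P7 (12 of 21), the F test (16) and the leading probe sets (4 genes) stayed within 1.5 times, except without the filter. Leaving out single arrays gave 11 to 13, 14 to 17 and 4 to 5. Without the filter 20 of 31 Klf probe sets were called for P40 minus P7, beside 14340 of all 34945 single-gene probe sets. Some of these Klf calls lay at background with small differences, such as Klf12 1422227_at (-0.08, highest array 2.37). With the actin covariate 3665 of all probe sets were called for P40 minus P7, against 6439. The step counts were small and moved. Calls in P10 minus P7 (2) numbered 1 under quantile normalization and with equal medians, 0 without the filter, without the trend, with array weights and without P15 replicates 2 and 3 together, and 0 to 2 without single arrays. Those in P15 minus P10 (5) numbered 2 without the filter, 8 with array weights, 0 with the number of cells or the actin covariate, 0 without P15 replicates 2 and 3, and 0 to 7 without single arrays. Those in P25 minus P15 (1) numbered 6 with array weights, 0 without the filter, with values under 5 set to 5, with either covariate and without P15 replicates 2 and 3, and 0 to 2 without single arrays. Those in P40 minus P25 (2) numbered 8 without the filter, 7 with array weights, 1 under quantile normalization, with equal medians, without the trend, with the actin covariate and without P15 replicates 2 and 3, and 0 to 4 without single arrays. Directions that reversed belonged to values that were not called: Klf13 1436316_at (-0.04 under quantile normalization and equal medians), Klf9 1456341_a_at (-0.01 with equal medians) and Klf5 1451739_at (0.004 with the number of cells). The cause was not tested.

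With the replicate number as a block, calls numbered 0 in P10 minus P7, 2 in P15 minus P10 and 1 in P40 minus P25, and the other counts stayed within 1.5 times; 3 of 15 arrays correlated best with an array of their own number at another age.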

Other observations

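Probe sets of several zinc-finger genes read low at P25 and higher again at P40; they were singled out after their values were seen, and the pattern was not tested. Sp1 (1418180_at), a ubiquitous GC-box activator, read 8.85, 9.52 and 9.66 at P7, 5.46, 6.70 and 7.82 at P25, and 9.02, 8.51 and 8.44 at P40. Another tested Sp1 probe set, 1454852_at, is not shown here. P25 replicate 3 was the highest P25 array for Sp1 1418180_at, Klf12 1439847_s_at and Klf7 1419356_at alike. The leading probe sets of Klf12 and Klf13 ran the other way, with their highest mean of the 5 ages at P25 (11.82 ± 0.63 and 9.41 ± 0.37).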
